A study of Mus musculus with 12 samples.

Results

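Livers taken 12 h after removal of part of the liver were compared with livers taken 6 h after the same operation, a 70% partial hepatectomy. The 12 h group held 3 libraries and the 6 h group held 3, which is 6 of the 12 libraries of the series. Libraries were grouped by the hour in their titles, and the sham-operated livers were not used. Both groups were C57/BL6J wild-type mice, whose whole livers were profiled by RNA-seq of poly(A) RNA, and no other treatment or allele is labelled. A difference given here is therefore one between 2 times after resection and does not say on which side of an unoperated liver a level lies. Of 54532 genes in the deposited table, 10586 were tested, namely those reaching 1 FPKM in at least 3 of the 6 libraries.

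Partial hepatectomy removes lobes, and the hepatocytes that remain, normally resting cells, enter the cell cycle and grow until the lost mass is restored. The first hours are known for immediate early transcription factors and for IL-6 signalling through STAT3, and the later hours for passage through G1 towards DNA synthesis. Liver transcription also follows a daily clock, in which BMAL1 with CLOCK or NPAS2 activates genes for PER, CRY and REV-ERB proteins that repress it in turn.

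Levels are given as FPKM, the reads of a gene over its length and over an effective size of its library, as deposited, for replicates 1, 2 and 3 of a group in that order, or as mean ± SD over these 3 libraries. Differences are on the log2 scale of edgeR fits to the counts, 12 h minus 6 h, with their standard error. A gene is said to rise or fall at 12 h where the edgeR quasi-likelihood test gave a Benjamini-Hochberg adjusted p under 0.05 over all 10586 genes. Whether the 3 libraries of a time are from different mice is not labelled, and if they are not, the p-values describe technical spread alone. Library totals were 16429539 to 16629328 counts at 12 h and 15608314 to 17199639 at 6 h, and the biological coefficient of variation was 16.58%. The first principal component held 66.92% of the variance and separated the 2 times. The second held 11.91% and set replicate 3 of both times apart. Its values were -28.29 for 6 h replicate 3 and -15.37 for 12 h replicate 3, against 6.08 to 14.34 for the other libraries. The time tag of 6 h replicate 3 reads 7 h beside a title of 6 h, while tag and title of 12 h replicate 3 both read 12 h. Correlations of logged and scaled counts across genes were 0.979 or more within the 12 h group and 0.977 or more within the 6 h group, against at most 0.941 between the times.

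The 12 hepatocyte markers were all detected. Their summed level was 25400 to 26900 FPKM at 12 h and 37700 to 42500 FPKM at 6 h. Of the 12, 7 were lower at 12 h (58.3%, against 16.2% of all tested genes) and 0 higher (against 17.9%). These shares of all genes also apply to the marker counts that follow. Markers of other liver cells were far lower in sum. Macrophage markers summed to 90.2 to 115 FPKM at 12 h and 132 to 155 FPKM at 6 h, with 4 of 13 tested genes lower and 1 higher. Endothelial markers gave 46.9 to 57.3 FPKM at 12 h and 60.3 to 72.5 FPKM at 6 h, with 4 of 15 tested genes lower and 0 higher. Stellate cell markers gave 64.7 to 77.2 FPKM at 12 h and 90.3 to 96.2 FPKM at 6 h, with 6 of 15 lower and 1 higher. Erythroid markers gave 47.9 to 69.3 FPKM at 12 h and 87.9 to 116 FPKM at 6 h, with 3 of 5 tested genes lower, and cholangiocyte markers 27.7 to 34.7 FPKM at 12 h and 34.2 to 42.1 FPKM at 6 h, with 2 of 4 lower. Neutrophil markers gave 9.07 to 11.3 FPKM at 12 h and 13.3 to 23.3 FPKM at 6 h, with 1 of 3 tested genes lower. Of the neutrophil markers, Ly6g, Camp and Ngp had at most 4 counts in any library. T and NK cell markers did not pass 1.94 FPKM in sum in any library. These sums rest on the deposited FPKM, whose library size lay above the library total at 12 h and below it at 6 h. That scaling sets every sum lower at 12 h relative to 6 h than library totals would. Sums scaled by library totals were not computed, so a lower sum alone does not show a shift of the tissue. In whole tissue fewer cells of a type and less RNA per cell cannot be told apart, and the part of these shifts in the results below was not tested.

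At 12 h, 1891 genes rose (17.9% of those tested) and 1717 fell (16.2%). These 2 shares are the background for each count of list members below. By a fold of 2 or more, 711 rose and 457 fell, and by a fold of 8 or more, 53 rose and 37 fell. The 3 and 3 libraries did not overlap in FPKM for 48.3% of the tested genes. Of the genes tested, 313 passed the filter only through 12 h livers and 143 only through 6 h livers. In such genes the filter itself sets the FPKM of the 2 times apart. They are counted below for the clock, replication, G1 to S, mitosis and cholesterol lists. The acute phase, immediate early, bile acid, p53, ATF4, interferon, conjugation, cytoskeletal and hepatocyte factor lists each held 1. Scaling by library totals in place of trimmed mean (TMM) factors moved the median of all genes up by 0.26 on the log2 scale and gave 3539 higher and 774 lower genes, so that 82.05% of calls were higher at 12 h, against 52.41% with TMM. The log2 differences below are those with TMM, whose median over all genes was -0.003, and library totals raise each of them by about that shift. The plot of differences against mean level shows the whole set, with rises and falls at all levels of expression.

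The largest fall among genes with a higher group mean of at least 5 FPKM was in Cdkn1a (chr17:29090976-29100727, GRCm38), which encodes p21, an inhibitor of cyclin-dependent kinases that holds cells in G1. Its level was 0.883, 0.832 and 0.5201 FPKM at 12 h, against 55.8, 54.02 and 53.6 FPKM at 6 h. All 12 h libraries were below 1 FPKM and far under the 6 h libraries, which lay close together, a log2 difference of -6.13 ± 0.19 (edgeR adjusted p = 1.3e-07). Igfbp1 (chr11:7197782-7202546), a secreted binding protein for insulin-like growth factors, had 28.2, 11.8 and 12.96 FPKM at 12 h, against 689, 778 and 828 FPKM at 6 h. The highest 12 h library was replicate 1 and lay far below every 6 h library, with a log2 difference of -5.37 ± 0.34 (edgeR adjusted p = 5.2e-06). Cyp7a1 (chr4:6265612-6275633), the hydroxylase that sets the rate of bile acid production, moved the other way, with 13.6, 29.9 and 45.8 FPKM at 12 h, against 0.3702, 0.218 and 0.123 FPKM at 6 h. Its 12 h libraries spread over a wide range with replicate 1 lowest (log2 difference 7.00 ± 0.50, edgeR adjusted p = 1.0e-05). Cyp7a1 passed the filter only through 12 h livers and Cdkn1a only through 6 h livers, so the filter itself sets their groups apart.

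Clock genes were among the most changed. Of 21 listed core clock and clock output genes 20 were tested, and 12 rose (60.0%, against 17.9% of all genes) and 5 fell (against 16.2%), with a median log2 difference of 1.22. Of these 20, 5 had passed the filter only through 12 h livers and 2 only through 6 h livers, and with edgeR's filterByExpr, a filter on counts, 12 of 21 rose and 5 fell, against 16.4% and 15.0% of 13529 genes. The labels give no time of day, so the hour after resection and the clock time of collection cannot be told apart.

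Of the positive arm of the loop, Arntl and Npas2 were low at 12 h. Arntl (chr7:113207465-113314126), the gene for BMAL1, had 0.187, 0.211 and 0.261 FPKM at 12 h, against 3.1, 2.795 and 3.75 FPKM at 6 h. Every 12 h library was far below every 6 h library, but Arntl passed the filter only through 6 h livers, which sets its groups apart. Its log2 difference was -3.81 ± 0.20 (edgeR adjusted p = 2.0e-06). Npas2, a partner of BMAL1 that can stand in for CLOCK, had 7 counts over the 12 h libraries and 453 over the 6 h libraries, a scaled 12 h to 6 h ratio of 0.0127 with a 95% interval of 0.00506 to 0.0263 that covers counting error only. Clock itself had 3.87, 3.25 and 3.88 FPKM at 12 h and 5.097, 4.04 and 4.96 FPKM at 6 h and did not pass the test (log2 difference -0.3, edgeR adjusted p = 0.099). Nfil3, a bZIP repressor of the D-box promoters that DBP activates, had 10.4, 9.19 and 8.29 FPKM at 12 h, against 34.9, 39.6 and 37.1 FPKM at 6 h, with no overlap (log2 difference -1.94 ± 0.13). Cry1, a repressor of the CLOCK complex, fell by 0.65 with 2.32, 2.28 and 2.21 FPKM at 12 h and 3.47, 3.91 and 3.704 FPKM at 6 h, and under scaling by library totals this fall no longer passed (log2 difference -0.38, edgeR adjusted p = 0.081).

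Output genes and the period genes Per2 and Per3 stood high at 12 h. Dbp (chr7:45705088-45710203), a PAR bZIP activator of liver output genes, had 15.02, 17.1 and 13.7 FPKM at 12 h, against 0.164, 0.3903 and 0.197 FPKM at 6 h. The 12 h libraries were all high and the 6 h libraries all below 1 FPKM, a fold of 61.9 (log2 difference 5.95 ± 0.25, edgeR adjusted p = 6.1e-07). Dbp thus passed the filter only through 12 h livers, which sets its groups apart. Its family members Tef and Hlf rose as well. Tef had 16.2, 16.9 and 15.8 FPKM at 12 h and 1.25, 2.34 and 2.14 FPKM at 6 h and Hlf had 8.33, 8.63 and 7.81 FPKM at 12 h and 3.501, 3.58 and 3.52 FPKM at 6 h, both without overlap. Among the period genes, Per3 had 4.18, 3.19 and 3.51 FPKM at 12 h and 0.0512, 0.0473 and 0.1303 FPKM at 6 h and a log2 difference of 5.64 ± 0.29, which became 6.24 without 6 h replicate 3. Per2 had 7.16, 7.31 and 6.85 FPKM at 12 h and 0.936, 0.853 and 0.7796 FPKM at 6 h and a log2 difference of 3.11 ± 0.14. Per1, which also answers to glucocorticoids, had 2.08, 3.94 and 5.49 FPKM at 12 h and 5.36, 5.31 and 6.46 FPKM at 6 h and did not pass the test (log2 difference -0.52, edgeR adjusted p = 0.16), and without 12 h replicate 3 it passed (-0.86, edgeR adjusted p = 0.03).

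The 2 REV-ERB genes, whose products repress Arntl, went in opposite directions. Nr1d2, for REV-ERB beta, had 19.2, 16.1 and 18.3 FPKM at 12 h, against 3.47, 4.98 and 5.54 FPKM at 6 h (log2 difference 1.99 ± 0.17, edgeR adjusted p = 2.5e-05). Nr1d1, for REV-ERB alpha, had 10.5, 5.64 and 7.04 FPKM at 12 h, against 16.1, 22.8 and 13.7 FPKM at 6 h (log2 difference -1.13 ± 0.24, edgeR adjusted p = 0.0054). The groups did not overlap in either gene, and the fall of Nr1d1 no longer passed in a fit with all 9 resected libraries (edgeR adjusted p = 0.059). Rora, for a nuclear receptor that competes with REV-ERB for its sites, had 6.25, 5.69 and 5.56 FPKM at 12 h and 6.28, 5.73 and 6.95 FPKM at 6 h and differed by -0.06 (edgeR adjusted p = 0.73). Ciart, Usp2, Noct and Cry2 also rose, by 2.67, 3.32, 1.81 and 1.16, and Bhlhe40 by 0.48, a call that was lost without 12 h replicates 1 or 2, without 6 h replicates 2 or 3 (log2 differences 0.30 to 0.52), with all 9 resected libraries (0.45) and with limma on log2(FPKM + 1) (0.38). Exons of Dbp overlap those of Sphk2, and those of Nr1d1 overlap Thra, on the opposite strand, and whether counting used the strand is not given in the sources used here. Sphk2 and Thra were at 4.91 and 1.28 FPKM at 12 h and at 4.15 and 1.42 FPKM at 6 h.

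**Figure D1:**
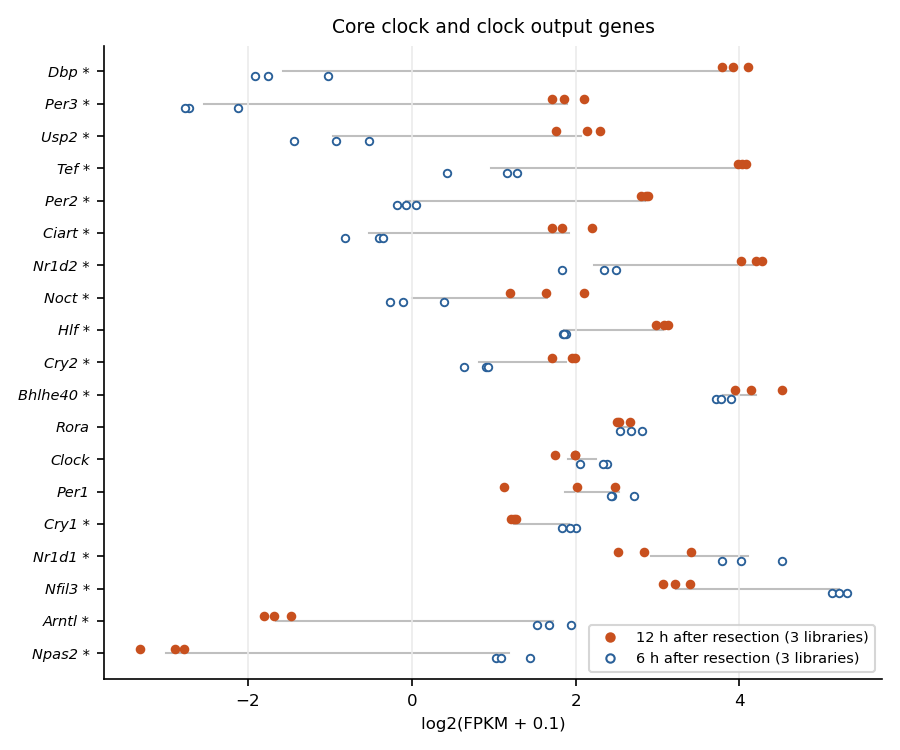
Levels of 19 of the 20 tested clock genes, as log2 of FPKM plus 0.1, for each 12 h library (filled orange) and each 6 h library (open blue), with a grey line between the group means and an asterisk for an edgeR adjusted p under 0.05. Genes run from Dbp at the top, at 5.95, to Npas2 at the bottom, at a log2 difference of -6.22.

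BMAL1 with CLOCK binds the E-box CACGTG, which reads the same on both strands. In the 250 bases before the RefSeq start (GRCm38.p6), this sequence stood in 5 of the 18 listed clock genes with a promoter in the table (27.8%), against 1854 of all 27025 genes (6.86%). Of the called genes with a promoter, 2 of 9 that rose and 1 of 5 that fell held it. A matching promoter of each of these 3 is shown with the E-box in capitals, 5′ to 3′ on the strand of its gene. Ciart and Tef rose and Cry1 fell.
Ciart chr3:95882229-95882478 (- strand): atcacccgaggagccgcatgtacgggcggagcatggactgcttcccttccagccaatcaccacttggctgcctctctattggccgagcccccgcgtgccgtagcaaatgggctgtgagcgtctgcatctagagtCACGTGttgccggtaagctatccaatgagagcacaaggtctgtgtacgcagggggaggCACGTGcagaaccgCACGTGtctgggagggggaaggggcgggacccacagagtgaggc
Tef chr15:81802423-81802672 (+ strand): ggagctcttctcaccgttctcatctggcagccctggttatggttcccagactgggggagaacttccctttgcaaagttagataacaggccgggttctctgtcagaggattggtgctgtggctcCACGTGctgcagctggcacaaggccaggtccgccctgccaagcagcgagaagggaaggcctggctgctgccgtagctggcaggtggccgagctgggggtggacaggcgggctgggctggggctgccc
Cry1 chr10:85185055-85185304 (- strand): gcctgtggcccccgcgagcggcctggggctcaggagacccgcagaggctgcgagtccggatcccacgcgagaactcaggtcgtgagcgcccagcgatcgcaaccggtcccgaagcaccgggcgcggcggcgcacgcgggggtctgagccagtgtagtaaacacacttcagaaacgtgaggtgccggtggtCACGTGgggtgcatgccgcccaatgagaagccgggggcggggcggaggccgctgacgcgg
The promoter shown for Ciart held 3 E-boxes and those shown for Tef and Cry1 held 1 each. Another RefSeq promoter of Tef, at chr15:81811164-81811413, also held a match and is not shown. A gene was counted, here and for the E2F letters below, where any of its promoters matched. A match is a sequence and not a measured site, and genes without one were not examined beyond this window.

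The machinery of DNA replication was the group with the highest share of rises among the lists with 3 or more tested members. Of 48 listed genes 38 were tested, 13 of which had passed the filter only through 12 h livers, and 31 rose (81.6%, against 17.9% of all genes), with a median log2 difference of 1.71. No tested member fell by edgeR, 0 were lower at an unadjusted p under 0.05, and 0 fell by DESeq2. With filterByExpr 39 of 47 rose, against 16.4% of all genes it kept.

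The MCM helicase, which unwinds DNA at the fork, rose in all of its 6 subunits. Mcm5 (chr8:75109569-75128439) had 4.88, 10.7 and 6.77 FPKM at 12 h, against 0.299, 0.293 and 0.443 FPKM at 6 h, and replicate 2 was the highest of the 12 h libraries. Its log2 difference was 4.48 ± 0.33 (edgeR adjusted p = 1.0e-05). Mcm2 had 2.68, 5.86 and 3.8 FPKM at 12 h and 0.323, 0.168 and 0.318 FPKM at 6 h and Mcm6 had 5.03, 13.5 and 8.94 FPKM at 12 h and 0.542, 0.779 and 0.7102 FPKM at 6 h. Mcm3, Mcm4 and Mcm7 differed by 3.17, 2.76 and 1.66, and their groups did not overlap. Mcm2, Mcm5 and Mcm6 passed the filter only through 12 h livers, so the filter itself sets their groups apart. Exons of Mcm7 overlap Cops6 on the opposite strand, which was at 29.6 FPKM at 12 h and 43.9 FPKM at 6 h.

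Licensing factors, which load the helicase at origins, rose beside their inhibitor. Cdt1 had 3.76, 5.89 and 5.05 FPKM at 12 h and 0.4698, 0.372 and 0.235 FPKM at 6 h (log2 difference 3.81 ± 0.28). Cdc6, under the filter, had 541 counts over the 12 h libraries and 8 over the 6 h libraries, which is 55.4 times as many after scaling (95% interval 27.9 to 129, for counting error only). Gmnn, for geminin, which binds CDT1 and blocks it, had 5.98, 12.5 and 8.14 FPKM at 12 h and 0.815, 0.797 and 0.855 FPKM at 6 h (log2 difference 3.48 ± 0.31). In the origin recognition complex Orc6 rose by 1.18 and Orc1, under the filter, had 113 counts at 12 h and 6 at 6 h. The 4 other tested subunit genes of the complex, Orc2 to Orc5, did not pass the test, although Orc2 and Orc5 did with library totals (0.64 and 0.56).

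Genes of the fork itself followed. Pcna, the sliding clamp, had 12.2, 27.6 and 18.5 FPKM at 12 h, against 8.02, 8.005 and 9.297 FPKM at 6 h, so that the lowest 12 h library still exceeded the highest 6 h one (log2 difference 1.26 ± 0.24, edgeR adjusted p = 0.003). Prim1, the primase subunit, rose by 2.69, Lig1, which joins Okazaki fragments, by 3.69, Rpa2, a single-strand binding subunit, by 2.23 and Pold1, the catalytic subunit of polymerase delta, by 2.21. Uhrf1, which guides maintenance methylation to new DNA, had 1.66, 8.499 and 3.04 FPKM at 12 h and 0.0495, 0.0305 and 0.1902 FPKM at 6 h. Its log2 difference was 5.68 ± 0.75, 4.77 without 12 h replicate 2 and 6.79 without 6 h replicate 3. Not all genes of nucleotide supply passed the test. Rrm1 differed by 2.05 and Rrm2 by 1.17, a call lost without 12 h replicate 2 (0.64) or without 6 h replicates 1 or 2 (1.06 and 1.01), and with limma on log2(FPKM + 1) (0.76). Tk1 had 1.103, 2.09 and 0.679 FPKM at 12 h and 0.919, 0.762 and 1.03 FPKM at 6 h and did not pass (log2 difference 0.57, edgeR adjusted p = 0.25). Across the list 12 h replicate 2 tended to be the highest library, and without it 30 members rose and the median was 1.42.

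Regulators of the step from G1 to S phase changed in both directions. Of 26 listed genes 20 were tested, 6 of them passing the filter only through 12 h livers and 1 only through 6 h livers. Of the 20, 13 rose (65.0%) and 2 fell, with a median of 0.86, and with filterByExpr 16 of 25 rose and 3 fell. Ccnd1, for cyclin D1, which starts the passage through G1, had 30.3, 26.3 and 21.98 FPKM at 12 h, against 12.5, 6.34 and 7.94 FPKM at 6 h, with no overlap (log2 difference 1.61 ± 0.23, edgeR adjusted p = 0.00049). The cyclin E genes, which act with CDK2 at the S phase boundary, rose more steeply. Ccne1 had 2.93, 3.703 and 3.34 FPKM at 12 h and 0.449, 0.658 and 0.996 FPKM at 6 h (log2 difference 2.3 ± 0.29) and Ccne2 had 1.87, 2.29 and 2.31 FPKM at 12 h and 0.281, 0.334 and 0.253 FPKM at 6 h (log2 difference 2.94 ± 0.26). Cdk2 itself had 3.001, 3.72 and 3.21 FPKM at 12 h and 1.07, 1.13 and 1.24 FPKM at 6 h, and Cdk6 and Cdk4 rose by 1.3 and 0.65, and Cdk4 lost its call without 12 h replicate 2 (0.53). Exons of Cdk4, at means of 10.6 FPKM at 12 h and 7.0 FPKM at 6 h, overlap Tspan31 on the opposite strand. Tspan31 was at 83.7 FPKM at 12 h and 71.1 FPKM at 6 h. Cdc25a, the phosphatase that activates CDK2, had 1.41, 1.43 and 1.44 FPKM at 12 h and 0.709, 0.728 and 0.698 FPKM at 6 h. Both groups were tight (log2 difference 1.06 ± 0.17, edgeR adjusted p = 0.0009). Cdc25a passed the filter only through 12 h livers, which sets its groups apart.

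Among the E2F factors, which drive replication genes, the activators E2f1 and E2f3 rose by 2.67 and 1.15. E2f1 had 1.56, 3.403 and 1.56 FPKM at 12 h and 0.379, 0.3498 and 0.327 FPKM at 6 h. E2f4, a repressor in resting cells, had 5.295, 6.23 and 5.87 FPKM at 12 h and 11.3, 11.2 and 9.76 FPKM at 6 h and fell by 0.83. E2f6 rose by 0.6. Of the pocket proteins that hold E2F, Rbl1 rose by 1.58, while Rb1 and Rbl2, at 0.58 and 0.11, did not pass (edgeR adjusted p = 0.066 and 0.67). Rb1 did by DESeq2 (0.58) and library totals (0.84), and without 12 h replicate 2 (0.73) or 6 h replicate 3 (0.74). Cdkn2c, an INK4 inhibitor, rose by 1.74, against the fall of Cdkn1a described above, and Cdkn1b, for p27, had 5.34, 5.25 and 5.46 FPKM at 12 h and 3.302, 4.26 and 5.34 FPKM at 6 h (log2 difference 0.37, edgeR adjusted p = 0.12), passing with library totals (0.64) and without 6 h replicate 3 (0.56). Wee1, a kinase that delays mitosis and a known clock output, had 7.36, 7.48 and 7.89 FPKM at 12 h, against 0.288, 0.114 and 0.431 FPKM at 6 h, with a log2 difference of 4.84 ± 0.29 (edgeR adjusted p = 3.3e-06).

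G2 and mitosis genes were low at both times, and of 18 listed genes only Aurka passed the filter, with 1.496, 1.69 and 1.35 FPKM at 12 h and 0.8603, 0.744 and 0.844 FPKM at 6 h (log2 difference 0.94 ± 0.26, edgeR adjusted p = 0.018), and that call was lost without 12 h replicate 2 (0.86) or 6 h replicate 2 (0.88). Mki67, the proliferation marker, had 47, 109 and 54 counts at 12 h and 41, 9 and 27 counts at 6 h, which is 0.253 to 0.593 FPKM at 12 h and 0.0581 to 0.286 FPKM at 6 h. Top2a, a topoisomerase that untangles replicated DNA, had 126, 315 and 229 counts at 12 h and 28, 23 and 33 counts at 6 h, without overlap. With filterByExpr 13 of the 18 were tested and 6 rose, against 16.4% of all genes it kept. Top2a was among these 6 (log2 difference 2.67, edgeR adjusted p = 0.00023) and Mki67 was not (log2 difference 1.11, edgeR adjusted p = 0.11). The 12 h replicate 2 had the highest count of Mki67, Top2a, Cdk1 and Birc5.

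**Figure D2:**
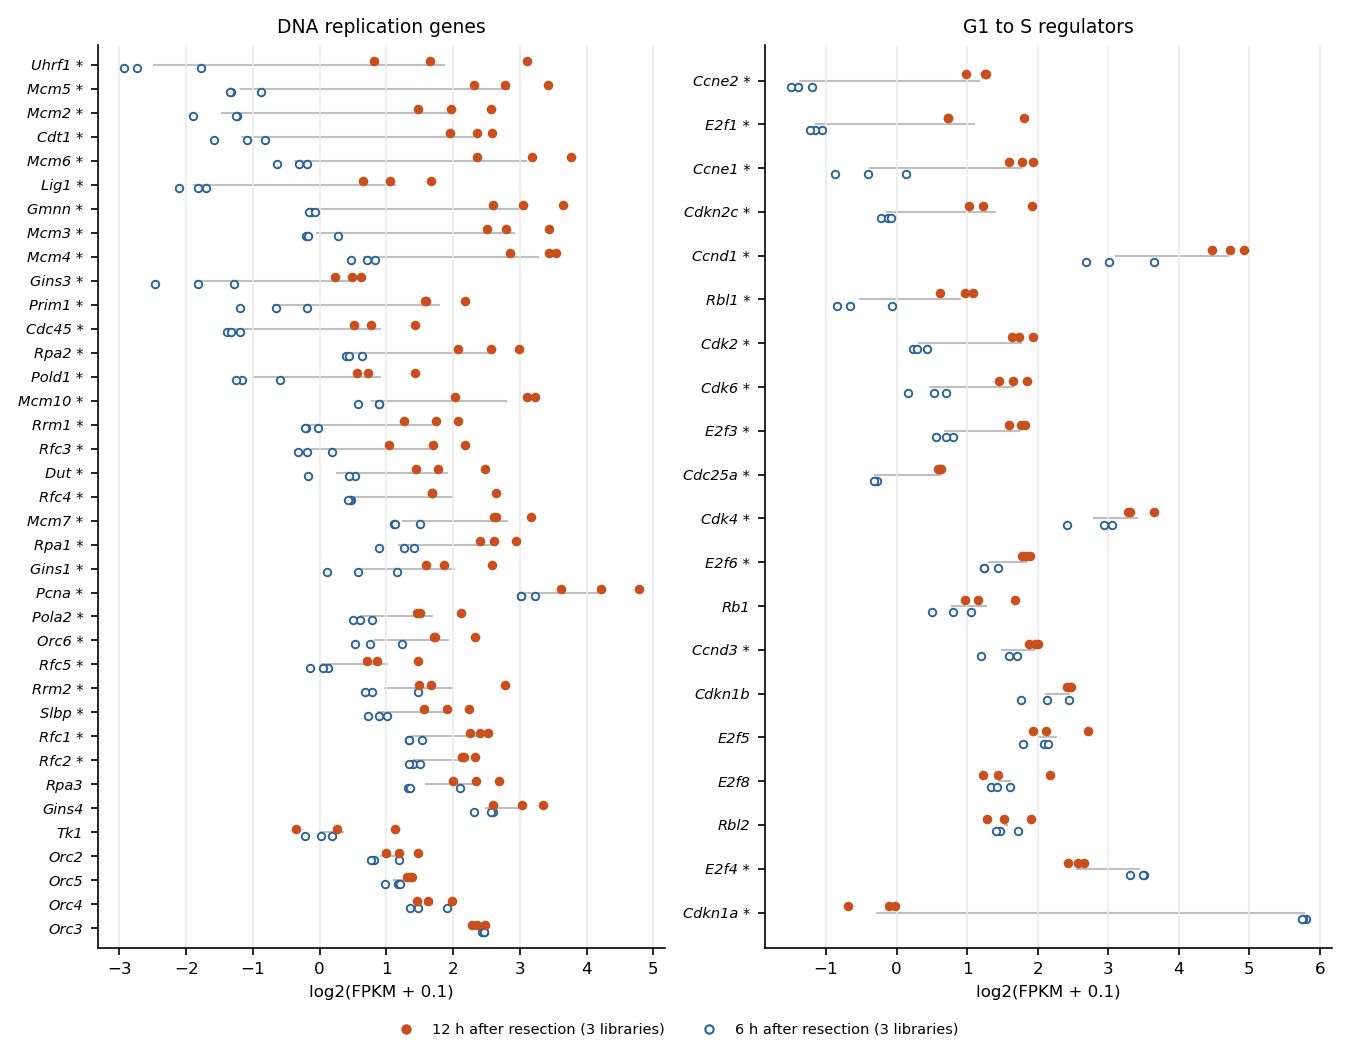
Levels of 37 of the 38 tested DNA replication genes (left) and the 20 tested G1 to S regulators (right), as log2 of FPKM plus 0.1, for each 12 h library (filled orange) and each 6 h library (open blue), with a grey line between group means and an asterisk for an edgeR adjusted p under 0.05. The 12 h points lie to the right in 36 of these 37 replication genes by their fitted difference, and Cdkn1a at the bottom right has the widest gap of the regulators.

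E2F factors bind sequences such as GCGGGAA. These letters, on either strand, stood in the 250 bases before the start of 12 of 39 listed replication genes with a RefSeq promoter (30.8%) and of 4 of 19 G1 to S regulators (21.1%), against 1184 of all 27025 genes (4.38%). Of the replication genes that rose, 6 of 26 with a promoter held it. The promoters of 4 of these are shown 5′ to 3′ on the strand of the gene (GRCm38.p6), with the letters in capitals, written TTCCCGC where the match is on the other strand.
Uhrf1 chr17:56303087-56303336 (+ strand): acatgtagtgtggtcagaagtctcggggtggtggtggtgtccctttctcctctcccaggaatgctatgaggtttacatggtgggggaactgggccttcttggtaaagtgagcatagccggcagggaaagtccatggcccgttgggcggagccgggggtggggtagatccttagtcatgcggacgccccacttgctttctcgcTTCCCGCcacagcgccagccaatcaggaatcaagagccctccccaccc
Gins3 chr8:95633309-95633558 (+ strand): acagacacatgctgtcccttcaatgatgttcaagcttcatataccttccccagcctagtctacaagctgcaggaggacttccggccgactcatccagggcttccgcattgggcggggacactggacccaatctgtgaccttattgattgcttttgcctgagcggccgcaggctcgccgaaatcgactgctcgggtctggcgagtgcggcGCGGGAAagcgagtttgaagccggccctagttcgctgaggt
Prim1 chr10:128014965-128015214 (+ strand): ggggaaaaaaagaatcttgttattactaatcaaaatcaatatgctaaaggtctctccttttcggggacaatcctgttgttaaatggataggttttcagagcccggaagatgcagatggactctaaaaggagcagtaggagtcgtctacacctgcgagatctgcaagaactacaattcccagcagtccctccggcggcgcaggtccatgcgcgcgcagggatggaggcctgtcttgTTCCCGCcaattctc
Rpa2 chr4:132768110-132768359 (+ strand): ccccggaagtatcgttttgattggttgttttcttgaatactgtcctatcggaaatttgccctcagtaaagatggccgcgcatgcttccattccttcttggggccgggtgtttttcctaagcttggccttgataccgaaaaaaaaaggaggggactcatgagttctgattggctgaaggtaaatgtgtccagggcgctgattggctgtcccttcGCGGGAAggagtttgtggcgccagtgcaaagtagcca
Gins3, a part of the helicase complex, had 1.298, 1.44 and 1.07 FPKM at 12 h and 0.182, 0.311 and 0.0815 FPKM at 6 h and rose by 2.74. Uhrf1 is described above. Prim1 had 2.92, 4.45 and 2.895 FPKM at 12 h and 0.781, 0.336 and 0.533 FPKM at 6 h. It passed the filter only through 12 h livers, which sets its groups apart. Rpa2 had 4.103, 7.81 and 5.82 FPKM at 12 h and 1.22, 1.26 and 1.45 FPKM at 6 h, without overlap. Nothing was measured at these sequences.

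Immediate early genes, which code for factors induced within minutes of a stimulus, were mostly lower at 12 h. Of 36 listed genes 29 were tested, and 23 fell (79.3%, against 16.2% of all genes), with a median log2 difference of -1.27. No member rose by edgeR, 0 were higher at an unadjusted p under 0.05, and 0 rose by DESeq2. Egr1, a zinc finger factor, had 2.98, 1.81 and 1.47 FPKM at 12 h, against 22.04, 19.8 and 48.2 FPKM at 6 h, with no overlap and with 6 h replicate 3 above the other two (log2 difference -3.78 ± 0.38, edgeR adjusted p = 6.0e-05). Btg2, an antiproliferative gene and p53 target, had 3.55, 4.33 and 4.9 FPKM at 12 h, against 43.6, 42.02 and 61.99 FPKM at 6 h (log2 difference -3.48 ± 0.19, edgeR adjusted p = 2.4e-06). Gadd45g (chr13:51846678-51848468), a stress sensor, had 25.5, 26.4 and 26.8 FPKM at 12 h, against 220.4, 190.2 and 191 FPKM at 6 h (log2 difference -2.88 ± 0.12, edgeR adjusted p = 6.1e-07). In all 3 genes every 12 h library was far below every 6 h library.

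Of the AP-1 factors, Junb, Jun, Jund, Fos and Fosl2 fell. Junb had 14.9, 12.2 and 12.7 FPKM at 12 h and 78.5, 67.6 and 61.96 FPKM at 6 h, Jun had 6.73, 4.95 and 6.04 FPKM at 12 h and 15.6, 15.04 and 13.7 FPKM at 6 h and Jund had 12.4, 9.06 and 8.997 FPKM at 12 h and 22.5, 23.04 and 16.4 FPKM at 6 h. Fos had 1.06, 0.303 and 0.286 FPKM at 12 h and 1.88, 1.77 and 3.35 FPKM at 6 h, with 12 h replicate 1 the highest of its group, and its log2 difference of -2.01 ± 0.49 was -2.92 without that library. Fosl2 fell by 1.11. Atf3, a bZIP factor that pairs with JUN proteins, had 1.48, 0.8898 and 0.546 FPKM at 12 h and 1.598, 1.45 and 1.85 FPKM at 6 h and did not pass the test (log2 difference -0.68, edgeR adjusted p = 0.18), though it did without 12 h replicate 1 (-1.13, edgeR adjusted p = 0.042). Exons of Junb overlap Prdx2 on the opposite strand, at 22.0 FPKM at 12 h and 21.7 FPKM at 6 h. Ier2 and the mRNA decay factors Zfp36 and Zfp36l1 differed by -2.09, -1.81 and -1.71, and Dusp1 and Dusp5, phosphatases that switch off MAP kinases, by -1.27 and -2.87 (-3.47 without 12 h replicate 1). Dusp6, another such phosphatase, did not pass the test (log2 difference 0.05, edgeR adjusted p = 0.91), nor did Phlda1 (0.29, edgeR adjusted p = 0.38). Myc, a driver of cell growth, was not called either, with 1.89, 4.88 and 3.54 FPKM at 12 h and 3.08, 2.56 and 2.195 FPKM at 6 h. Its groups overlapped and its log2 difference of 0.45 ± 0.30 did not pass (edgeR adjusted p = 0.28), although it did without 12 h replicate 1 (0.74, edgeR adjusted p = 0.042).

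The IL-6 receptor and STAT3 genes were lower as well. Of 15 tested genes 12 fell (80.0%), with a median of -0.99, and none rose by edgeR, at an unadjusted p under 0.05 or by DESeq2 (0 in each). Stat3, the transcription factor, had 13.8, 14.3 and 15.98 FPKM at 12 h, against 32.8, 32.8 and 33.3 FPKM at 6 h, without overlap (log2 difference -1.11 ± 0.11, edgeR adjusted p = 7.7e-05). Socs3, its feedback inhibitor, had 17.2, 15.2 and 14.9 FPKM at 12 h, against 58.7, 43.1 and 38.6 FPKM at 6 h (log2 difference -1.52 ± 0.16, edgeR adjusted p = 9.2e-05). Of the receptors, Il6st, for the shared chain gp130, fell by 0.53 (0.27 with library totals, which no longer passed), Osmr by 0.99 and Il1r1, the interleukin 1 receptor, by 2.59, with 12.7, 16.8 and 26.3 FPKM at 12 h and 93.9, 103 and 150.5 FPKM at 6 h. Cebpb and Cebpd, bZIP factors of the acute phase, fell too. Cebpb averaged 37.1 ± 1.51 FPKM at 12 h and 114 ± 17.4 FPKM at 6 h and Cebpd 1.58 ± 0.321 FPKM at 12 h and 8.76 ± 1.898 FPKM at 6 h, differences of -1.56 and -2.41. Pim3 and Bcl3 fell by 2.2 and 1.69.

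**Figure D3:**
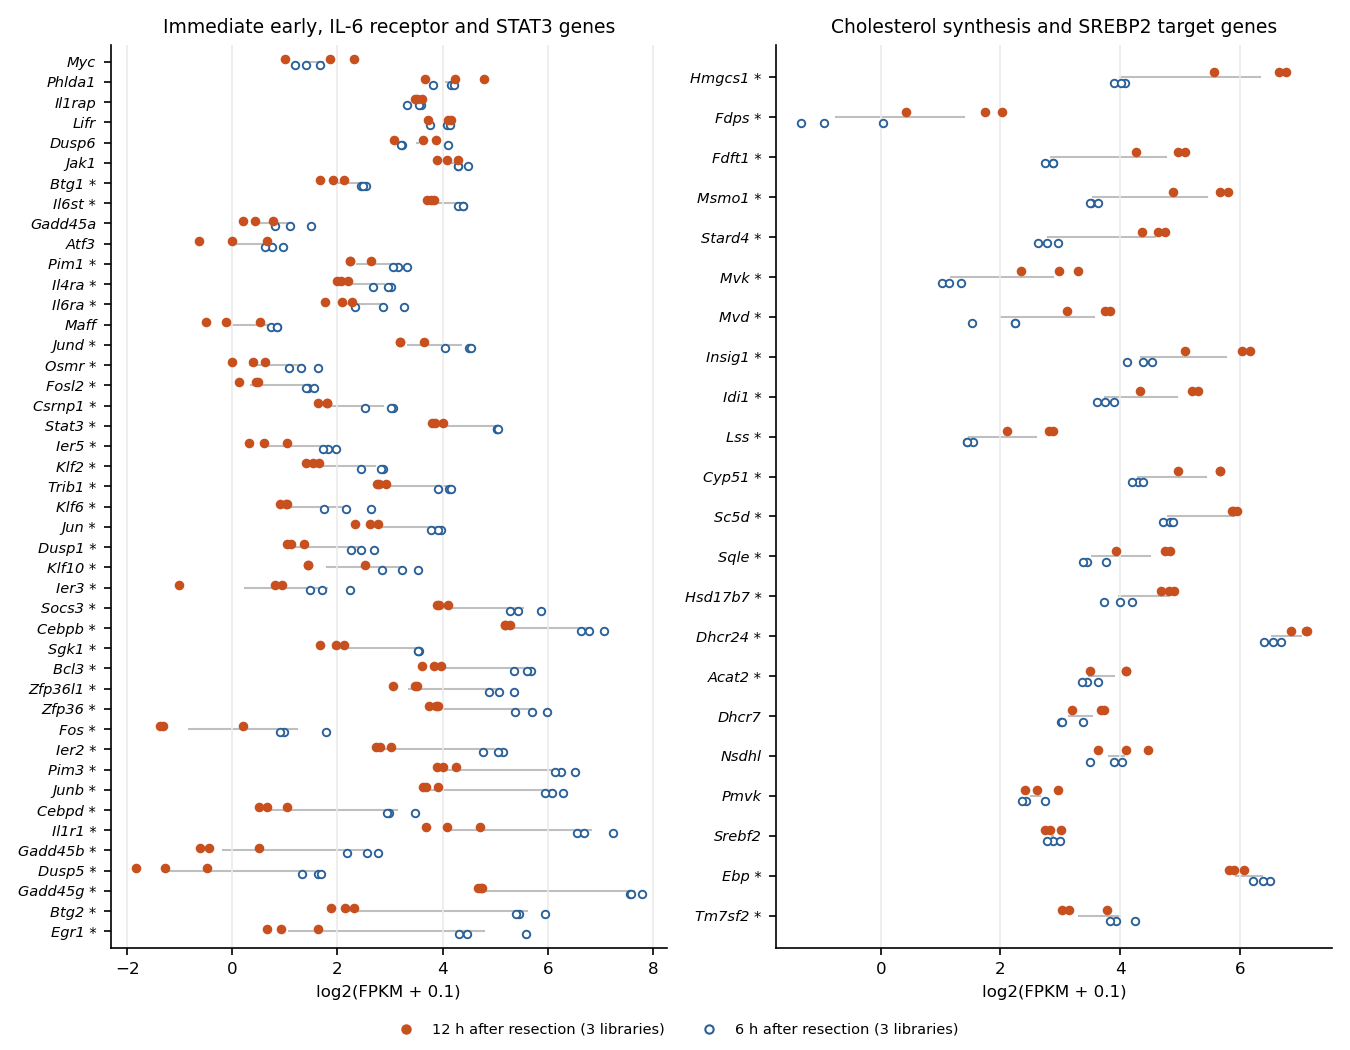
Levels as log2 of FPKM plus 0.1 for each 12 h library (filled orange) and each 6 h library (open blue), with a grey line between group means and an asterisk for an edgeR adjusted p under 0.05. On the left, 29 immediate early and 15 IL-6 and STAT3 genes lie mostly lower at 12 h, down to Egr1 at -3.78, and on the right 16 of the 22 cholesterol genes drawn were called higher, with Hmgcs1 at the top at 2.48.

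Acute phase proteins, which the liver secretes in inflammation, divided by gene. Of 30 tested 16 fell (53.3%) and 1 rose, with a median of -0.51. Without 12 h replicate 2, 10 fell, and with scaling by library totals 9 fell. Of the serum amyloid genes, Saa3 and Saa4 fell by 1.09 and 0.97, and the more abundant Saa1 and Saa2 did not pass the test. Saa1 had 1927, 2008 and 1721 FPKM at 12 h, against 2366, 1998 and 1918 FPKM at 6 h, and the groups overlapped (log2 difference -0.1 ± 0.13, edgeR adjusted p = 0.6). Its close copies can share its reads. Lcn2, for lipocalin 2, had 638, 480.2 and 721 FPKM at 12 h, against 619, 957 and 1290 FPKM at 6 h, with an overlap (log2 difference -0.59 ± 0.24, edgeR adjusted p = 0.085). It passed by DESeq2 (adjusted p = 0.026) and without 6 h replicate 1 (-0.82, edgeR adjusted p = 0.011).

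Larger differences stood elsewhere in the list. Steap4, a metalloreductase, had 88.9, 94.2 and 132 FPKM at 12 h, against 638, 711 and 1041 FPKM at 6 h (log2 difference -2.87 ± 0.22, edgeR adjusted p = 1.3e-05). Il1rn, the interleukin 1 receptor antagonist, fell by 2.74 and Lbp, the lipopolysaccharide binding protein, by 1.31. The fibrinogen chain Fgg had 4276, 4152 and 4953 FPKM at 12 h and 7315, 9091 and 8701 FPKM at 6 h, without overlap (log2 difference -0.85 ± 0.13, edgeR adjusted p = 0.00072). Orm2, an orosomucoid gene with close copies, was the member that rose, with 293, 206 and 214 FPKM at 12 h and 126, 154 and 96.3 FPKM at 6 h (log2 difference 0.98 ± 0.20). Acute phase transcripts took 11.1% to 12.5% of the counts at 12 h and 13.2% to 14.8% at 6 h.

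NF-kB genes and chemokines followed with 9 of 16 lower (56.2%) and 1 higher, a median of -0.60. Cxcl1, a neutrophil attractant, had 17.4, 44.6 and 73.6 FPKM at 12 h, against 143, 189.7 and 296 FPKM at 6 h, with wide and separate groups (log2 difference -2.16 ± 0.43, edgeR adjusted p = 0.0036). The subunit gene Rela had 12.6, 13.8 and 10.4 FPKM at 12 h and 25.3, 27.96 and 20.6 FPKM at 6 h and the inhibitor genes Nfkbib and Nfkbia fell by 1.69 and 0.74. The chemokine Cxcl12, made by stromal and endothelial cells, was the exception with 43.96, 40.8 and 39.99 FPKM at 12 h and 15.9, 15.7 and 15.4 FPKM at 6 h, tight groups that lay far apart (log2 difference 1.46 ± 0.12, edgeR adjusted p = 1.7e-05).

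Cholesterol synthesis rose along most of the pathway. Of 25 tested genes of synthesis and of the SREBP2 programme, 19 rose (76.0%, against 17.9%) and 2 fell, with a median log2 difference of 1.24. Of these 25, 1 had passed the filter only through 12 h livers, and with filterByExpr 18 of 25 rose and 2 fell. Hmgcs1 (chr13:119690379-119708260), which makes HMG-CoA, had 47.4, 109 and 100.5 FPKM at 12 h, against 14.9, 16.9 and 16.1 FPKM at 6 h (log2 difference 2.48 ± 0.26, edgeR adjusted p = 8.7e-05). Its lowest 12 h library, replicate 1, was still above every 6 h library.

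Later steps of the pathway rose too. Mvk, Mvd, Idi1 and Fdft1, which build squalene, rose by 1.85, 1.63, 1.31 and 2.04. Sqle, Lss, Cyp51, Msmo1 and Sc5d, which turn squalene into sterols, rose by 1.07, 1.24, 1.24, 2.02 and 1.15. Pmvk, Nsdhl and Dhcr7, of the same pathway, did not pass (log2 differences 0.22, 0.34 and 0.45, edgeR adjusted p = 0.42, 0.23 and 0.051). Fdft1 shares exon sequence with Ctsb on the opposite strand, which was at 47.9 FPKM at 12 h and 68.1 FPKM at 6 h. Fdps, which passed the filter only through 12 h livers, rose by 2.39, and by 3.02 without 6 h replicate 2. Of the SREBP2 targets, Insig1, which retains SREBP in the endoplasmic reticulum, had 34.02, 71.99 and 65.4 FPKM at 12 h and 17.2, 22.98 and 20.8 FPKM at 6 h, without overlap. Srebf2 itself had 7.003, 8.004 and 6.64 FPKM at 12 h and 7.23, 7.91 and 6.77 FPKM at 6 h (log2 difference 0.04, edgeR adjusted p = 0.83). The genes that fell were Ebp and Tm7sf2, by 0.38 and 0.61. Both calls were lost with library totals and in 4 of the 6 fits that left out 1 library, with values of -0.37 to -0.32 for Ebp and -0.65 to -0.47 for Tm7sf2.

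Bile acid genes gave no common direction, with 4 of 21 tested higher (19.0%, near the 17.9% of all genes) and 7 lower (33.3%, against 16.2%). Cyp7a1, described above, rose and 4 other named synthesis genes fell. Cyp27a1, a mitochondrial sterol hydroxylase, had 115, 103 and 106 FPKM at 12 h and 217, 201 and 215 FPKM at 6 h (log2 difference -0.91 ± 0.12) and Cyp8b1, which sets the share of cholic acid, had 50.05, 55.2 and 54.6 FPKM at 12 h and 142, 87.4 and 77.98 FPKM at 6 h (log2 difference -0.89 ± 0.20). Acox2 and Baat, of side chain shortening and conjugation, fell by 1.17 and 0.86. The export pump Abcb11 fell by 0.90, while the uptake carrier Slco1b2 rose by 0.8.

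Genes of fatty acid synthesis and of lipid droplets were more often lower. In the synthesis list 8 of 18 fell and 3 rose (median -0.49). Elovl3, an elongase of long saturated chains, had 15.97, 12.5 and 10.5 FPKM at 12 h, against 281, 222 and 188 FPKM at 6 h (log2 difference -4.09 ± 0.21, edgeR adjusted p = 2.0e-06), with no library near the other group. Insig2, the second retainer of SREBP, had 54.7, 36.6 and 23.5 FPKM at 12 h and 334, 275 and 378 FPKM at 6 h and fell by 3.04, opposite to Insig1. Acaca, the carboxylase that starts the pathway, fell by 0.67, whereas Gpam and Fads2 rose by 1.04 and 0.99.

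In the lipid droplet list 9 of 18 fell and 1 rose (median -0.71). Lpin1, a phosphatidate phosphatase and co-activator, had 1.71, 2.89 and 5.29 FPKM at 12 h, against 29.5, 35.5 and 45.97 FPKM at 6 h (log2 difference -3.44 ± 0.35, edgeR adjusted p = 7.2e-05). Plin2, the main coat protein of liver droplets, had 342, 191 and 210.4 FPKM at 12 h, against 1050, 936 and 528 FPKM at 6 h, the 6 h libraries all above the 12 h ones (log2 difference -1.7 ± 0.28). Plin4, Plin5 and Pnpla2 fell by 1.48, 1.68 and 1.11, and Hilpda by 2.27 (3.08 without 12 h replicate 1). Cd36, a fatty acid carrier, rose by 0.73. Of 31 genes of fatty acid oxidation 7 fell (22.6%, against 16.2% of all genes) and 1 rose (3.23%, against 17.9%). The gene that rose was Ppara, the lipid-sensing receptor, with 20.5, 16.3 and 16.6 FPKM at 12 h and 10.95, 9.103 and 7.56 FPKM at 6 h. The 7 lower calls in this list became 2 without 12 h replicate 3 or 6 h replicates 1 or 2, 3 without 12 h replicate 2 and 11 without 6 h replicate 3.

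Glucocorticoid targets fell with their receptor gene going the other way. Of 15 tested genes 9 fell (60.0%), with a median of -0.76, and Nr3c1, the receptor, was the 1 that rose, with 10.3, 11.1 and 11.2 FPKM at 12 h and 5.099, 5.17 and 6.02 FPKM at 6 h (log2 difference 1.06 ± 0.11, edgeR adjusted p = 9.1e-05). Zbtb16 had 0.829, 1.27 and 0.445 FPKM at 12 h, against 9.95, 9.47 and 13.02 FPKM at 6 h (log2 difference -3.61 ± 0.30, edgeR adjusted p = 2.1e-05). Fkbp5, a feedback chaperone of the receptor, had 6.73, 4.51 and 5.94 FPKM at 12 h and 16.6, 15.8 and 24.1 FPKM at 6 h and Tat, tyrosine aminotransferase, had 438, 447 and 692 FPKM at 12 h and 1291, 1564 and 2052 FPKM at 6 h, both without overlap. Cyp2b10, also a target of the receptor CAR, fell by 3.95 with 1.49, 0.233 and 0.0265 FPKM at 12 h and 7.75, 10.9 and 9.83 FPKM at 6 h, and by 6.10 without 12 h replicate 1.

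The growth factor list split. Met, the receptor of hepatocyte growth factor, rose by 1.07 with 13.5, 12.7 and 14.2 FPKM at 12 h and 6.73, 6.94 and 6.3 FPKM at 6 h, and its ligand gene Hgf, expressed by stellate and endothelial cells, had 2.06, 1.73 and 1.96 FPKM at 12 h, against 0.938, 1.02 and 1.43 FPKM at 6 h (log2 difference 0.82 ± 0.19, edgeR adjusted p = 0.0089). Tgfa, a ligand of the EGF receptor, rose by 0.91. In the insulin and IGF axis, Igfals rose by 1.27, while Irs2, an insulin receptor substrate, had 5.29, 1.801 and 2.76 FPKM at 12 h and 19.97, 14.5 and 12.04 FPKM at 6 h and fell by 2.18, and Igfbp3 fell by 1.13. In all, 5 of 18 rose and 7 fell, and 4 fell without 12 h replicate 1 or without 6 h replicate 2.

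Among TGF-beta, activin and BMP genes, 5 of 21 rose and 7 fell, and the median of -0.13 became 0.13 with library totals. The 5 became 3 without 12 h replicate 1 or without 6 h replicate 2. Inhba, the subunit of activin A, had 6.08, 5.47 and 4.94 FPKM at 12 h, against 1.12, 1.27 and 1.06 FPKM at 6 h (log2 difference 2.31 ± 0.15, edgeR adjusted p = 6.0e-06). The BMP targets Id1 and Id2 fell by 1.29 and 1.04. In the Wnt list 4 of 15 rose (26.7%, against 17.9% of all genes) and 1 fell (6.67%, against 16.2%). Rnf43 and Znrf3, ligases that remove Wnt receptors and are themselves Wnt targets, rose by 1.94 and 0.73, and Notum, an enzyme that inactivates Wnt, by 0.94. Of 14 p53 targets 4 fell (28.6%, against 16.2% of all genes) and 2 rose (14.3%, against 17.9%). The falls were led by Cdkn1a and Btg2 and followed by Gdf15 and Plk3. The Gdf15 call, at -1.31, was lost without 12 h replicates 1 or 3 and without 6 h replicate 2 (-1.13, -1.06 and -1.18).

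Metal genes fell in 12 of 20 tested and rose in 3 (median -0.51). Mt1, a zinc and copper binding metallothionein, had 1011, 923 and 912 FPKM at 12 h, against 4989, 6516 and 5286 FPKM at 6 h (log2 difference -2.5 ± 0.14, edgeR adjusted p = 2.9e-06). Its neighbour Mt2 (chr8:94172664-94173568) had 2.58, 3.07 and 1.905 FPKM at 12 h, against 52.1, 57.3 and 28.8 FPKM at 6 h (log2 difference -4.13 ± 0.30, edgeR adjusted p = 1.0e-05). The genes are close copies, and their reads may be shared. Slc39a14, a zinc and iron importer, had 25.6, 27.9 and 40.2 FPKM at 12 h and 95.5, 87.8 and 139 FPKM at 6 h and fell by 1.73, while the zinc exporter Slc30a1 rose by 1.5 and the manganese exporter Slc30a10 fell by 2.51. In iron handling, Hamp, for hepcidin, which blocks iron export, had 2914, 3504 and 3108 FPKM at 12 h and 5075, 5275 and 5280 FPKM at 6 h and fell by 0.66, and Slc40a1, for the exporter ferroportin, had 9.798, 8.77 and 8.08 FPKM at 12 h and 3.14, 2.47 and 4.86 FPKM at 6 h and rose by 1.41.

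Secreted plasma proteins and amino acid breakdown were mostly lower by small amounts. Of 26 constitutive plasma protein genes 17 fell (65.4%), and 0 rose by edgeR, at an unadjusted p under 0.05 or by DESeq2, with a median of -0.43. Without 12 h replicate 3, 9 fell, and with library totals 7 fell and 4 rose. Alb, for albumin, had 15573, 15963 and 17190 FPKM at 12 h, against 22837, 27729 and 28248 FPKM at 6 h (log2 difference -0.64 ± 0.12, edgeR adjusted p = 0.0027), and Ttr and Apoa2 fell by 0.89 and 0.86. Of 32 urea cycle and amino acid genes 17 fell and 1 rose (median -0.40). Got1, Gldc and Sdsl fell by 1.38, 1.27 and 1.34, and Ass1, of the urea cycle, had 539, 505 and 572 FPKM at 12 h and 1094, 907 and 888 FPKM at 6 h. With library totals 10 fell. The hepatocyte marker sum given above includes Alb, Ttr and Ass1, so its lower level at 12 h is not separate from these falls.

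Among hepatocyte transcription factors 7 of 22 rose (31.8%, against 17.9% of all genes) and 6 fell (27.3%, against 16.2%). Hnf4a, the central factor of hepatocyte identity, had 72.1, 79.4 and 86.2 FPKM at 12 h, against 159, 159 and 166 FPKM at 6 h, without overlap (log2 difference -0.97 ± 0.12, edgeR adjusted p = 0.00019). Gata6 and Foxa3 fell by 1.2 and 0.67. Foxa1, a pioneer factor, had 6.85, 7.57 and 6.97 FPKM at 12 h and 3.55, 3.57 and 2.86 FPKM at 6 h and Nr2f2, an orphan receptor, had 5.21, 4.55 and 4.76 FPKM at 12 h and 1.65, 2.1 and 1.47 FPKM at 6 h, rises of 1.15 and 1.53. Onecut1 rose by 1.74 with 3.999, 7.43 and 7.96 FPKM at 12 h and 4.01, 1.23 and 0.7699 FPKM at 6 h, but its groups overlapped. It differed by 2.74 without 6 h replicate 1, and the call was lost without 12 h replicate 3 (1.57) or 6 h replicate 2 (1.48) and by DESeq2 (adjusted p = 0.053).

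Drug metabolism genes fell more often than they rose, 11 against 5 of 35 P450 genes and 14 against 4 of 38 conjugation genes. The 11 became 7 without 12 h replicate 3 or 6 h replicate 2. Nr1i3, for the receptor CAR, had 10.5, 7.51 and 6.06 FPKM at 12 h, against 2.21, 1.69 and 1.17 FPKM at 6 h (log2 difference 2.3 ± 0.26, edgeR adjusted p = 0.00012), although its exons overlap those of Tomm40l on the other strand over 2118 bases. Tomm40l was at 2.83 FPKM at 12 h and 0.843 FPKM at 6 h. Ugt2b35 rose by 1.62, and Gsta2, Gsta4 and Gstm7, of glutathione conjugation, fell by 1.53, 1.13 and 1.13. Ugt1a6a had 3.48, 2.88 and 2.65 FPKM at 12 h and 0.391, 0.226 and 0.512 FPKM at 6 h, but it shares its last exons with the other Ugt1a genes. P450, UGT and GST genes have close copies, and their reads may be split among them.

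Glucose genes fell in 8 of 18 and rose in 2. Slc2a2, the glucose transporter GLUT2, had 53.5, 40.7 and 38.8 FPKM at 12 h and 21.2, 19.6 and 19.5 FPKM at 6 h (log2 difference 1.2 ± 0.15) and Gys2, glycogen synthase, rose by 0.95, while Pygl, glycogen phosphorylase, fell by 1.06. Sds, serine dehydratase, had 27.8, 49.2 and 42.2 FPKM at 12 h and 191, 205 and 252 FPKM at 6 h and fell by 2.39.

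Ribosome and energy genes fell slightly in many members. Ribosome biogenesis had 28 of 61 lower and 3 higher (median -0.38), with Rcl1 at -1.26 and Heatr1 at -0.96, while Ncl and Npm1, the abundant nucleolar proteins, rose by 0.65 and 0.61. The nuclear-encoded respiratory chain had 29 of 75 lower and 1 higher (median -0.34). With library totals the lower calls became 8 and 5 in these lists, and leaving out 1 library gave as few as 16 (12 h replicate 1) and 13 (12 h replicate 3). For 79 ribosomal protein genes 15 fell and 1 rose, 19.0% against 16.2% of all genes, and without 12 h replicate 3 only 5 fell. Their median of -0.20 became 0.06 with library totals. Of 58 translation genes 16 fell (27.6%) and 3 rose (5.17%), and their median was 0.07 with library totals and -0.20 with TMM.

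Of 20 tested heat shock genes 7 rose and 4 fell. The HSP70-type and HSP40 chaperone genes Hsph1, Hspa4l and Dnajb1 rose by 1.04, 1.07 and 0.96, and the small heat shock genes Hspb1 and Hspb8 fell by 1.78 and 1.22. Of 25 cytoskeletal genes 6 were higher and 7 lower, with tubulins in both directions. The tubulins Tubb5, Tuba1b and Tuba1c rose by 1.27, 1.21 and 0.6. Actg1, cytoplasmic actin, had 49.3, 48.6 and 46.2 FPKM at 12 h, against 346, 231 and 194 FPKM at 6 h (log2 difference -2.37 ± 0.20, edgeR adjusted p = 2.4e-05), and Actb, Tubb2a and Tubb6 fell by 0.9, 1.83 and 1.44. Polyamine and nucleotide synthesis had 9 of 23 higher and 3 lower, with Odc1, which makes putrescine, at 41.2, 43.4 and 48.1 FPKM at 12 h and 28.1, 22.5 and 23.2 FPKM at 6 h and a log2 difference of 0.9 ± 0.13.

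**Figure D4:**
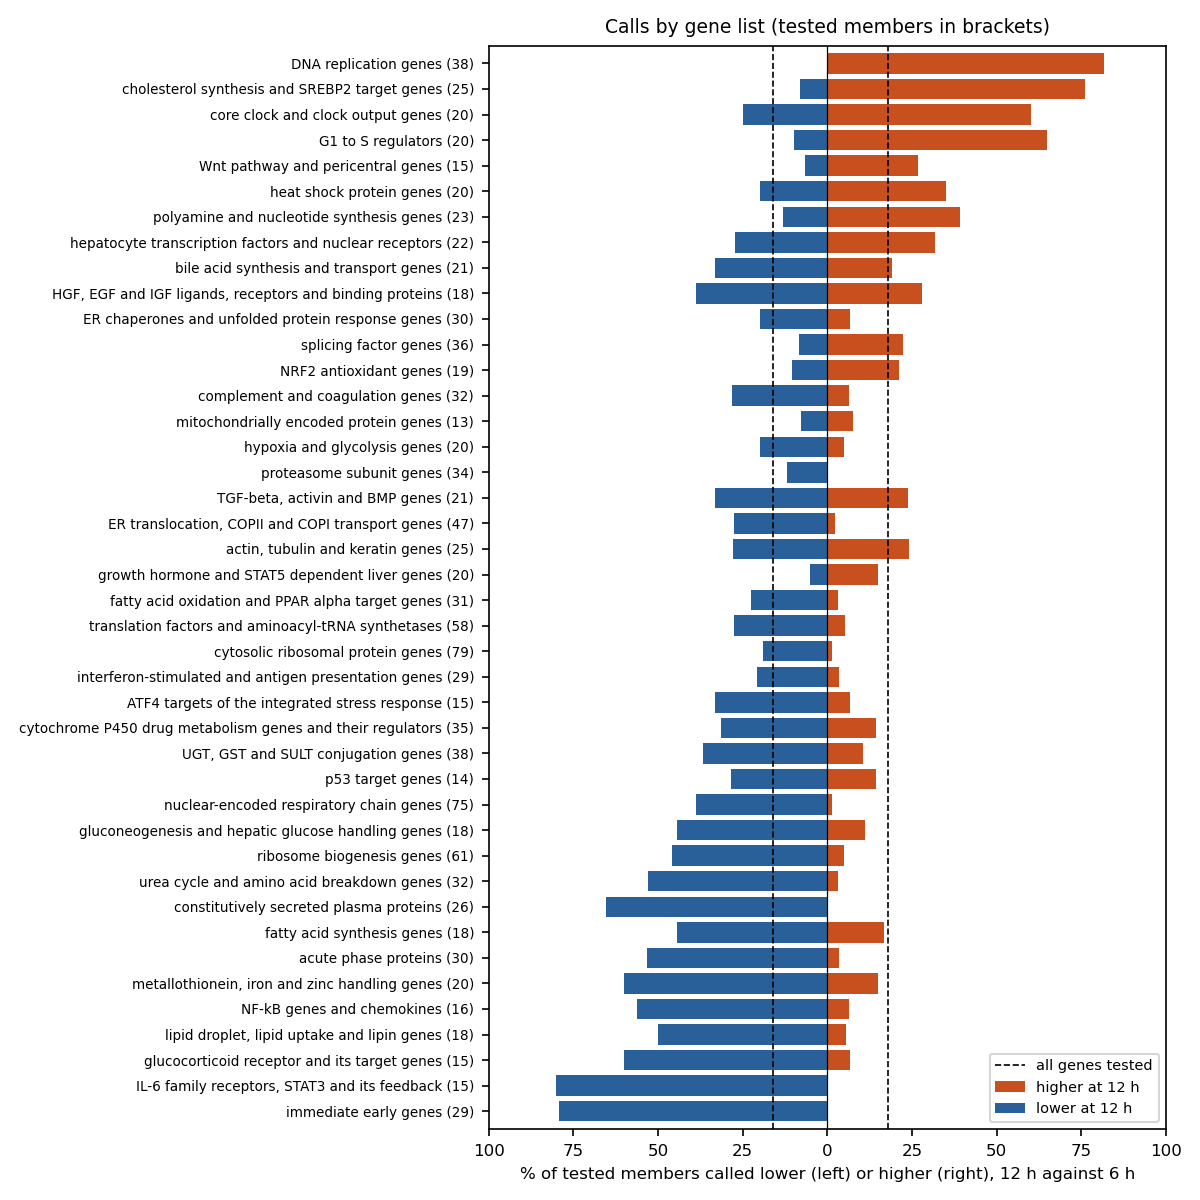
For each of 42 gene lists with 3 or more tested members, the percentage of tested members called lower (blue, to the left) and higher (orange, to the right) at 12 h against 6 h, ordered by median log2 difference. Dashed lines mark all tested genes, 16.2% lower and 17.9% higher. DNA replication (81.6% higher) and cholesterol synthesis (76.0% higher) are at the top, and IL-6 and STAT3 genes (80.0% lower) and immediate early genes (79.3% lower) at the bottom.

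Several of the remaining lists lay nearer the background of 16.2% for falls. Most of these had a smaller share of rises than the 17.9% of all genes. Proteasome genes had 4 of 34 lower (11.8%) and 0 higher by edgeR, at an unadjusted p under 0.05 or by DESeq2, but 9 higher and 0 lower with library totals. Splicing factors had 8 of 36 higher (22.2%) and 3 lower, and mitochondrially encoded genes 1 higher and 1 lower of 13. Of the 29 interferon and antigen presentation genes 6 fell (20.7%) and 1 rose (3.45%), and 3 fell without 12 h replicate 3. Of the 30 endoplasmic reticulum chaperone genes 6 fell (20.0%) and 2 rose (6.67%). Among the chaperone list, Xbp1, a factor of the unfolded protein response, had 84.5, 89.9 and 91.7 FPKM at 12 h, against 224, 227 and 224 FPKM at 6 h (log2 difference -1.29 ± 0.11, edgeR adjusted p = 2.6e-05), and Syvn1, a ubiquitin ligase of the same pathway, fell by 1.58. Farther out lay endoplasmic reticulum translocation and transport genes, with 13 of 47 lower (27.7%) and 1 higher (2.13%). Complement and coagulation genes had 9 of 32 lower (28.1%) and 2 higher (6.25%). With library totals the medians of these lists, -0.13 and -0.04, became 0.13 and 0.23. ATF4 targets also lay farther out, with 5 of 15 lower (33.3%) and 1 higher (6.67%), and 3 lower without 12 h replicate 3 or 6 h replicate 2. Among them Ddit4, an inhibitor of mTORC1, had 0.709, 1.34 and 1.75 FPKM at 12 h and 4.92, 5.81 and 12.8 FPKM at 6 h (log2 difference -2.57 ± 0.41).

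Some of the largest changes were in genes described with no group above. Clec2h, a C-type lectin (chr6:128662385-128677374), had 754 counts at 12 h and 10 at 6 h, which is 61.8 times as many after scaling (95% interval 33.4 to 129). Nrep, a regulator of neuronal regeneration, had 10.3, 15.6 and 8.27 FPKM at 12 h and 0.643, 0.594 and 0.4102 FPKM at 6 h (log2 difference 4.41 ± 0.29) and Kcnk5, a potassium channel, had 5.86, 6.77 and 4.23 FPKM at 12 h and 0.495, 0.744 and 0.195 FPKM at 6 h (log2 difference 3.59 ± 0.35). Hsd3b5, a male-biased hydroxysteroid dehydrogenase of mouse liver, had 13.6, 61.7 and 33.7 FPKM at 12 h and 2.58, 1.26 and 3.04 FPKM at 6 h, with a log2 difference of 4.05 ± 0.52 and of 3.42 without 12 h replicate 2. Slc10a6, a carrier of sulphated steroids, had 0.331, 0 and 0.395 FPKM at 12 h and 3.27, 4.92 and 7.28 FPKM at 6 h and Loxl4, a lysyl oxidase, had 0.437, 0.286 and 0.0665 FPKM at 12 h and 10.7, 4.33 and 4.46 FPKM at 6 h, differences of -4.34 and -4.55, the second being -5.14 without 12 h replicate 1. Tacc2, a centrosomal protein, had 1.72, 2.02 and 2.43 FPKM at 12 h and 18.2, 21.97 and 18.01 FPKM at 6 h and fell by 3.18.

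Mup10, a major urinary protein gene, showed the largest fitted rise, but it rested on 1 library. It had 2.68, 2.72 and 1049 FPKM at 12 h, against 1.87, 1.35 and 1.96 FPKM at 6 h, so that 12 h replicates 1 and 2 lay close to the 6 h libraries. The log2 difference was 7.71 ± 2.10 (edgeR adjusted p = 0.017), and without 12 h replicate 3 it was 0.71 (edgeR adjusted p = 0.11). The call was also lost without 6 h replicate 2 (7.56) and with limma on log2(FPKM + 1) (3.16, limma adjusted p = 0.26). The Mup genes are near-identical copies, and of the 8 other tested Mup genes in the list of growth hormone genes none was called.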

How the data were processed

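Whole liver RNA of 12 h and 6 h livers was compared from 1 deposited table, which holds raw counts per gene and FPKM per library. Per the submitters' processing notes and the labels' protocols, poly(A) libraries (NEBNext Ultra) were read as paired ends, cleaned with fastp, aligned to GRCm38 (mm10) with HISAT2 2.0.5 and counted with featureCounts 1.5.0-p3. The strand setting is not given in the sources used here, so opposite-strand overlaps may not be separable. The deposited FPKM equal the authors' count over the gene's length and an effective size of the library, which lay above the library total at 12 h (17857800 to 18484270) and below it at 6 h (13579965 to 15407140). Genes at 1 FPKM or more in 3 of 6 libraries were tested on the counts with edgeR 4.0.16 in R 4.3.3 (TMM, quasi-likelihood, group as the single term, Benjamini-Hochberg), and the script was tested on simulated data. The standard error is the size of the log2 difference divided by the square root of the F statistic. Exact 95% intervals on ratios of summed counts cover counting error only. Alternatives were RLE factors, library totals, no filter, edgeR's filterByExpr, DESeq2 1.42.0, limma 3.58.1 on log2(FPKM + 1), all 9 resected libraries, a replicate block and leaving out each library.

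The comparison, the 43 gene lists and the 10 marker lists were chosen with earlier results of these data known, so a list's direction is not independent evidence. Genes were named by rule. These were the 12 largest rises and falls among called protein-coding genes at 5 FPKM or more without overlap, up to 4 of the most changed called members per list, any tested member of the clock, G1 to S, replication, cholesterol, immediate early and acute phase lists, and 19 genes chosen by name. Acaca, Actb, Ass1, Baat, Birc5, Cd36, Cdk1, Cebpb, Cyp8b1, Dnajb1, Foxa1, Foxa3, Gstm7, Gys2, Hamp, Hnf4a, Id2, Igfbp3, Il6st, Met, Ncl, Nfkbia, Npm1, Nr3c1, Osmr, Plin4, Pnpla2, Pygl, Rela, Slc30a1, Slc40a1, Slco1b2, Stat3, Tgfa, Top2a, Tuba1b, Tuba1c and Tubb5 fell outside it and were chosen after their values were seen, and overlapping genes are named for their position. Some members that the rule names, counted in their lists, are not reported or drawn here. Coordinates are those of the deposited table. Promoters are from RefSeq (GRCm38.p6). The sham libraries were not used here.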

Additional observations from a re-analysis of the deposited data

How the results depend on the processing

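With scaling by library totals 3539 genes were higher and 774 lower at 12 h, against 1891 and 1717 with TMM, because this scaling moved the median of all genes up by 0.26. The counts stayed within 1.5 times of these under the other alternatives run, with RLE factors (1874 higher and 1741 lower), no filter (2345 and 2328, from a fit whose prior degrees of freedom came out infinite, so that its p-values did not follow the spread of single genes and its calls of genes are not used), filterByExpr (2225 and 2032), DESeq2 (1897 and 1791), limma on log2(FPKM + 1) (1539 and 1850) and all 9 resected libraries (1772 and 2028). Leaving out 1 library gave 1395 to 1920 higher and 1220 to 1790 lower genes. Deviations of same-numbered libraries correlated at 0.07, -0.01 and 0.20, so the numbers were not taken as pairs, and a fit with the replicate block gave 2089 higher and 1916 lower. It put Rb1 (0.57, edgeR adjusted p = 0.019), Per1 (-0.6, edgeR adjusted p = 0.043) and Clock (-0.3, edgeR adjusted p = 0.04) past the threshold and Mup10 out of it (3.84, edgeR adjusted p = 0.14). Directions turned in 5 named genes, none of them called, and the cause was not tested. Rora was 0.21 with library totals and -0.12 to 0.02 when 1 library was left out (0.02 without 6 h replicate 3). Rbl2 was -0.08 to 0.25 when 1 library was left out (-0.08 without 12 h replicate 3). Saa1 was 0.17 with library totals and -0.15 to 0.01 when 1 library was left out (0.01 without 6 h replicate 1). Srebf2 was -0.02 with limma, -0.01 without the filter and -0.04 to 0.1 when 1 library was left out (-0.04 without 12 h replicate 2 and -0.01 without 6 h replicate 3). Thra was 0.18 with library totals and -0.2 to 0.15 when 1 library was left out (0.07 without 12 h replicate 3 and 0.15 without 6 h replicate 2). Of the 18 mitosis genes 17 lay under the filter on FPKM.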
